A study of Mus musculus with 4 samples.

Results

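The keratin gene clusters of the mouse were followed through 2 stretches of the tiling array, chosen by position alone. The type I range ran from 99150000 to 100000000 on chromosome 11 (850 kb, type I keratins and keratin-associated proteins), and the type II range ran from 101300000 to 101950000 on chromosome 15 (650 kb, type II keratins), both in the coordinates of the array. They held 1432 tiled probes, 694 in the type I range and 738 in the type II range, of 474380 tiled probes in the series, and these formed 71 tiled regions of 25006. The rule that picked the probes used their position and no ratio, though the 2 stretches were proposed with earlier results of these data known. The ranges were set against the 37658 other probes of chromosome 11 and the 18262 other probes of chromosome 15.

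The series measured Polycomb marks by chromatin immunoprecipitation and 2-colour tiling arrays (ChIP-chip) in forelimb buds, the early outgrowths of the embryo that form the foreleg. Both groups were whole forelimb buds of wild-type BDF1 embryos at E10.5, pooled and fixed in 1% formaldehyde for 20 min, and they differed only in the antibody, against RING1B or against H3K27me3. Precipitated DNA and input DNA (whole extract without antibody) of each group were amplified in a double round with T7 RNA polymerase and hybridised to the same array. Of the 4 arrays, the 2 numbered 2 carried the keratin ranges, and the arrays numbered 1 held 0 probes there, so every keratin region had a single array for each antibody. There was no replicate, no test across samples was made, and every error given is a standard deviation over neighbouring probes, which leaves out the spread between embryo pools and precipitations. A whole bud mixes mesenchyme with the ectoderm that covers it, and the values are an average over both.

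Keratins are the intermediate filament proteins of epithelial cells. A type I (acidic) keratin pairs with a type II (basic) keratin to build a filament, and in the mouse nearly all genes of each type stand side by side in a cluster of their own. Some of the genes for keratin-associated proteins of hair, not all of them, lie inside the type I cluster. Simple epithelia use Krt8 and Krt18, basal epidermis uses Krt5 and Krt14, and hair keratins and keratin-associated proteins are used late, in the hair shaft. RING1B is the ubiquitin ligase of Polycomb repressive complex 1, H3K27me3 is the histone mark laid down by Polycomb repressive complex 2, and both are best known on repressed developmental genes with promoters rich in CG.

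The promoters of these genes are shown first because CG content is the sequence feature most often tied to Polycomb marks. RefSeq (GRCm38.p6) listed 76 genes in the run from Krt222 to Krt42 on chromosome 11, of which 27 were keratins and 23 keratin-associated proteins, and 40 genes in the run from Krt80 to Krt18 on chromosome 15, of which 27 were keratins. Promoter sequences were looked up only for the keratin and keratin-associated protein genes. They were found for 41 genes of the first run (20 keratins, 21 keratin-associated proteins) and for 16 keratins of the second. The genome build behind the array coordinates is not stated in these sources and may differ from GRCm38, so no tiled region below is tied to a gene and the array ranges could not be set against these genes. Of the promoters found in each run, those with fewest and most CG dinucleotides are printed, as the 250 bases before the transcript start. Krtap3-2 (chr11:99556854-99557103, minus strand) encodes a keratin-associated protein of hair, Krt39 (chr11:99521339-99521588, minus strand) a type I hair keratin, Krt90 (chr15:101562951-101563200, minus strand) a type II keratin, and Krt7 (chr15:101412153-101412402, plus strand) a type II keratin of simple epithelia; these positions are those of GRCm38.p6 and cannot be set against array positions. Capitals mark each CG and, on the strand shown, each TATAAA.
Krtap3-2: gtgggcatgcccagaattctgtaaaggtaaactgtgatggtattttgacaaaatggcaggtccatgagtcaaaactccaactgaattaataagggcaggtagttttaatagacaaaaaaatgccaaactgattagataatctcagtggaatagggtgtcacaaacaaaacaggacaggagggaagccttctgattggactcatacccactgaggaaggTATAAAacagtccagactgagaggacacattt
Krt39: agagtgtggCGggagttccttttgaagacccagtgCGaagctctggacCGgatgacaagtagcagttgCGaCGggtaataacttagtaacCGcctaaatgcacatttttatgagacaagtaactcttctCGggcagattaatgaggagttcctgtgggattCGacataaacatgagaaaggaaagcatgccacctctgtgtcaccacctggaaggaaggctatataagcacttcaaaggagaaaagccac
Krt90: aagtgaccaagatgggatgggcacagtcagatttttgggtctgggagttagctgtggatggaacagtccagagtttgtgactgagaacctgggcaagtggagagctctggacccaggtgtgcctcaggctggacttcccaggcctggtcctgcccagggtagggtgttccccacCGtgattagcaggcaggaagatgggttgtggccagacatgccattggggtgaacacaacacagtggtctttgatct
Krt7: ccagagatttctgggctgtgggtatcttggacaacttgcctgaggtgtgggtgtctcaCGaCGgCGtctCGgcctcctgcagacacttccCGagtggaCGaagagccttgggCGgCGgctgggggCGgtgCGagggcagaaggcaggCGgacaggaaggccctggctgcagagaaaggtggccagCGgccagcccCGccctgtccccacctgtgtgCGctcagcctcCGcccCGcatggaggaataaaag
The printed promoter of Krtap3-2 held 0 CG, that of Krt90 1, that of Krt39 8 and that of Krt7 16.

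Keratin promoters of both runs were poor in CG beside other promoters of the table. The median was 4 CG over 21 keratin promoters of the chromosome 11 run, 1 over 21 keratin-associated protein promoters and 3.5 over 16 keratin promoters of the chromosome 15 run, against 6 over all 32851 promoters. At least 10 CG were found in 0 of the 42 keratin and keratin-associated protein promoters of the chromosome 11 run. In the chromosome 15 run they were found in 2 of 16 keratin promoters, against 37.8% of all promoters. The letters TATAAA, searched on both strands, stood in 20 of 21 keratin-associated protein promoters (95.2%), in 12 of 21 keratin promoters of chromosome 11 (57.1%) and in 5 of 16 of chromosome 15 (31.2%), against 12.4% of all. These are letter counts over the matched genes, not binding sites.

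Probes lay in short tiled regions, taken as runs of probes whose starts lay no more than 1000 bp apart, with long untiled stretches between them. The type I range had 38 such regions that covered 18.7% of its length, and the type II range had 33 that covered 23.5%. Probes stood at 81.6 and 114 per 100 kb, against 32.0 and 18.3 on the rest of the 2 chromosomes, and their median spacing was 178 and 173 bp. The longest stretch without a probe was 161 kb in the type I range, from 99465642 to 99627060, and 49.3 kb in the type II range, so most of either range was not measured. Of the 694 type I probes, 549 were kept for RING1B and 577 for H3K27me3, and of the 738 type II probes, 630 and 662 were kept. A probe was left out when it was not well above background in both dyes or was marked as an outlier.

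Each value is the log2 ratio of Cy5 to Cy3, less the array median over its kept probes. Per the labels the precipitate carried Cy3 and the input Cy5, so the sign used here opposes the labels, and the direction is treated as open: with the dyes as labelled, every sign below turns and low values would be the enriched ones. For that reason counts are given in both directions. Over the array, means of 3 neighbouring kept probes passed 2.7 in 785 regions for RING1B and fell under -2.7 in 35. For H3K27me3 they passed 2.9 in 1409 regions and fell under -2.9 in 51. Regions named as called, and RING1B named as weak, take high Cy5 over Cy3 as the signal. Which dye carried the precipitate was not tested. Neighbouring kept probes within the ranges varied with a standard deviation of 0.79 (type I) and 0.74 (type II) for RING1B and of 0.55 and 0.54 for H3K27me3, against 0.76 and 0.66 over the array.

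Both keratin ranges held fewer high RING1B ratios than the rest of their chromosomes, and the type I range more low ones. In the type I range single probes ran from -3.45 to 2.21 with a median of -0.32, and on the rest of chromosome 11 the median was 0.04. In the type II range probes ran from -3.24 to 2.96 with a median of -0.10, against 0.12 on the rest of chromosome 15. The differences between medians were -0.36 and -0.22. A wider gap stood at the upper end, where the 95th percentile was 1.02 and 1.22 in the ranges and 2.57 and 2.87 outside them. A ratio of at least 3 was reached by 0 of 549 and 0 of 630 kept probes, against 3.82% and 4.66% of probes on the rest of the chromosomes. At the lower end, which is the enriched one with the dyes as labelled, ratios of at most -1 made up 24.95% of type I and 16.8% of type II probes, against 16.4% and 15.7%, and the 5th percentiles were -2.17 and -1.59, against -1.75 and -1.73.

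For H3K27me3 the type I range was lower than its chromosome and the type II range was not. Type I probes ran from -2.74 to 4.38 with a median of -0.52, against -0.03 on the rest of chromosome 11, a difference of -0.49, and 27.4% of them lay above 0, against 48.8%. The type I difference was -0.099 with loess and -0.025 with normexp background correction. The type II median of 0.13 was close to the 0.04 of the rest of chromosome 15, with a difference of 0.083. That small difference changed sign with the comparison and the summary: it was -0.25 against probes within 1 Mb of the range, and -0.064 when means replaced medians. The probes within 1 Mb were high beside the rest of chromosome 15, with 24.5% of them at 3 or more, against 10.53%. The type II range was narrower on both sides than its chromosome, with a 5th percentile of -1.13 against -1.93 and a 95th percentile of 2.59 against 4.08. In the type I range the 95th percentile was 1.03 against 3.81. Ratios of at least 3 were found at 6 type I probes (1.04%) and 19 type II probes (2.87%), against 8.78% and 10.53% outside. Turned to the lower end, ratios of at most -1 made up 27.2% of type I probes, against 20.9%, and 5.89% of type II probes, against 19.1%.

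**Figure D1:**
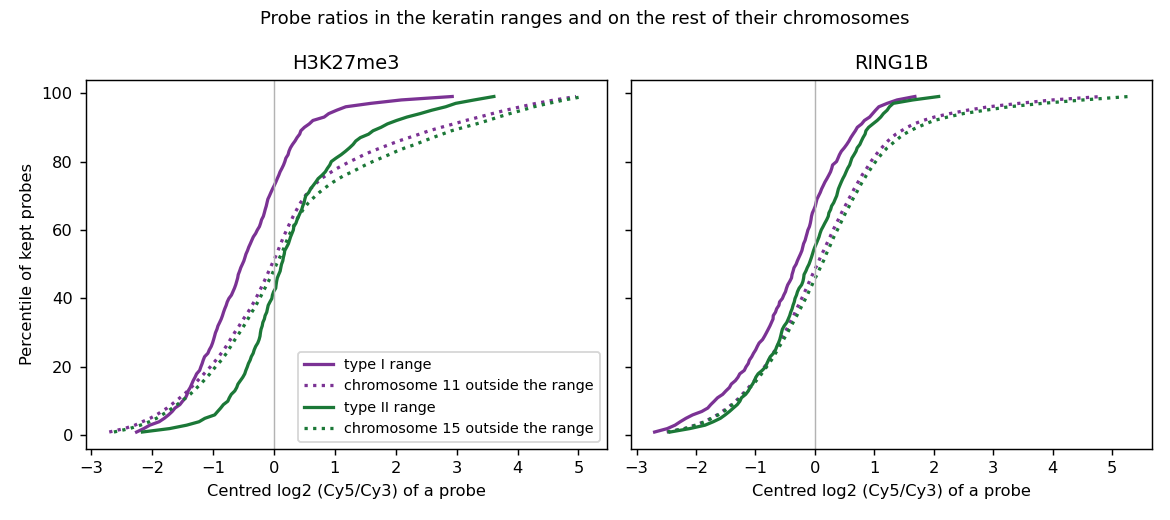
Percentiles (1 to 99, vertical axis) of the centred log2 ratio of kept probes (horizontal axis) for H3K27me3 and RING1B, with keratin ranges as solid lines and the rest of the same chromosome as dotted lines. The solid lines end short of the dotted ones at the upper right in both panels, and for H3K27me3 the type I line lies left of all others through its middle.

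The lower ratios of the type I range went with a lower Cy5 signal. Signal medians were taken over all probes, with those left out of the ratios included, so their differences need not match those of the ratios. The median log2 signal of type I probes was below that of the rest of chromosome 11 in Cy5. The differences were -0.56 for RING1B and -0.76 for H3K27me3, and in Cy3 they were -0.10 and -0.30. In the type II range the Cy5 differences were -0.41 for RING1B and 0.14 for H3K27me3, and the Cy3 difference was -0.13 for both. Probes not well above background in Cy5 made up 17.3% of the type I range on the RING1B array (95% Wilson interval 14.7 to 20.3), against 10.2% on the rest of chromosome 11, and 12.7% on the H3K27me3 array, against 12.7%. In the type II range the shares were 10.4% for RING1B, against 9.63%, and 5.15% (3.77 to 6.99) for H3K27me3, against 11.8%. These intervals cover counting error only, and the part of dim probes and of probe base composition in the ratios was not tested.

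Region by region, few keratin regions rose and none reached the calling threshold for RING1B. The value of a region was its top window, the highest mean of 3 neighbouring kept probes, and each antibody gave one in 30 type I and 31 type II regions. In the type I range 29 regions had one for both. For RING1B a top window of at least 1, which is 2-fold, was found in 4 of 30 type I regions and 6 of 31 type II regions, against 37.4% of the 9997 regions of the array, 38.5% on the rest of chromosome 11 and 43.2% on the rest of chromosome 15. For H3K27me3 it was found in 4 of 30 and 8 of 31, against 30.6% of the 9985 regions of the array, 29.2% and 31.7%. The 95% Wilson interval for 4 of 30 was 5.31% to 29.7%, which lay below the 38.5% of chromosome 11 for RING1B but held its 29.2% for H3K27me3. Intervals over regions, here and below, cover counting error only. They take neighbouring regions of 1 array as independent and are not tests against the chromosome or the array. With loess the type I count was 7 of 30 for each antibody, against 36.5% of the array for RING1B and 35.5% for H3K27me3. No interval was computed for the loess counts, so whether the RING1B contrast holds with loess was not tested.

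A region was called when its top window passed a threshold set so that, for every 100 regions above it, no more than 5 lay below the same value with a minus sign. That threshold was 2.7 for RING1B (6.50-fold) and 2.9 for H3K27me3 (7.46-fold). RING1B called 0 of 30 type I and 0 of 31 type II regions, against 7.85% of the array and 7.44% and 7.97% on the rest of chromosomes 11 and 15, and the upper ends of the 95% Wilson intervals were 11.4% and 11.03%, so a share like that of the array could not be told from 0 with so few regions. H3K27me3 called 1 of 30 and 3 of 31, against 14.1% of the array and 14.3% and 18.5% on the rest of chromosomes 11 and 15. The 95% Wilson intervals were 0.59% to 16.7% and 3.35% to 24.9%. Each held the share of the array and that of its chromosome. Under normexp background correction the RING1B calls became 2 and 5, at a threshold of 0.75 that called 30.4% of the array.

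In the opposite direction, which is that of the dyes as labelled, a bottom window (the lowest mean of 3 neighbouring kept probes) of at most -1 was found for RING1B in 22 of 30 type I regions and 17 of 31 type II regions, against 55.2% of the array and 50.6% and 49.9% on the rest of chromosomes 11 and 15. For H3K27me3 it was found in 19 of 30 and 8 of 31, against 52.6% of the array and 52.1% and 49.5% on the rest of chromosomes 11 and 15. The type II range thus held few low H3K27me3 windows: 25.8%, with a 95% Wilson interval of 13.7% to 43.2%. The lowest bottom windows in the ranges were -2.59 for RING1B and -2.62 for H3K27me3, so no keratin region passed the negative of either threshold, which 0.35% of array regions passed for RING1B and 0.51% for H3K27me3. At such low shares a count of 0 says nothing about the keratin regions.

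**Figure D2:**
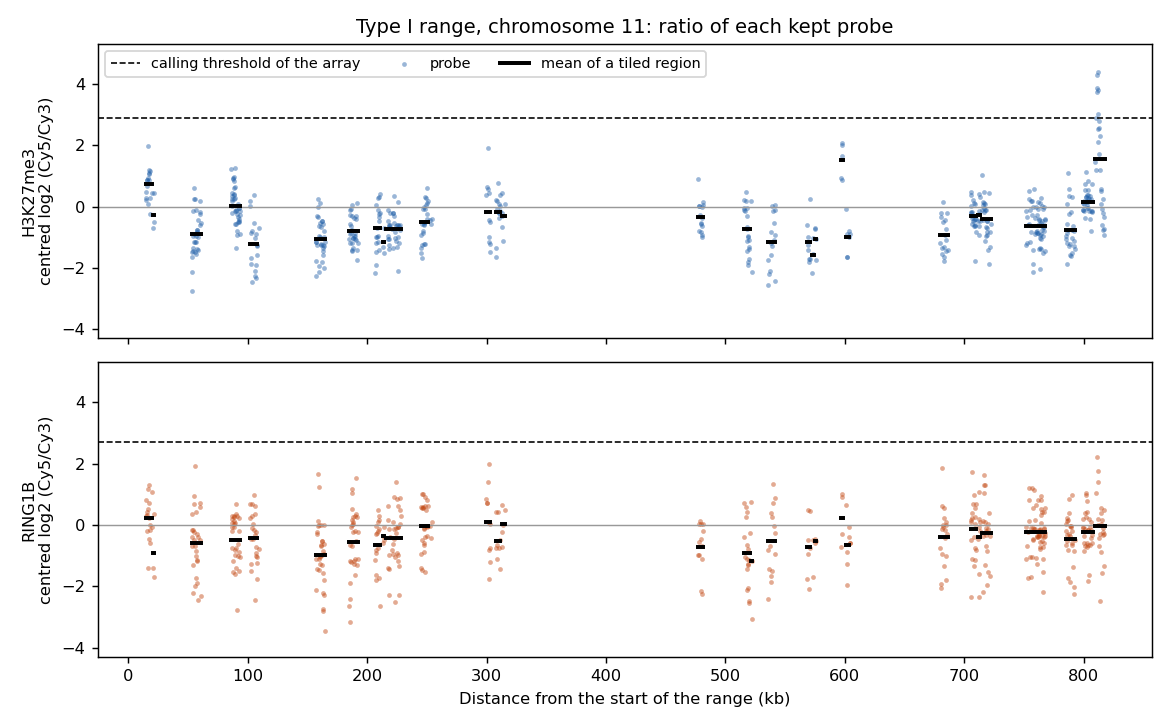
Centred log2 ratio of each kept probe (points) along the type I range for H3K27me3 (top) and RING1B (bottom), with distance from the start of the range in kb on the horizontal axis, black bars for region means and a dashed line at the calling threshold. Most H3K27me3 bars lie below 0, and points pass the dashed line only in the last tiled region.

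The last region of the type I range stood apart from the other 29. It ran from 99959784 to 99967470 on chromosome 11 and was the one type I region called for H3K27me3. The 3 probes of its top window read 3.85, 4.30 and 4.38, a mean of 4.18 ± 0.28 (SD over 3 probes), or 18.1-fold. The signal lay towards one end: 7 of its 25 windows passed the threshold, and its bottom window near the far end was -0.67 ± 0.30. RING1B probes in its own top window read 2.21, 1.38 and 1.76 (mean 1.78 ± 0.42), and the centres of both top windows were 41 bp apart. This RING1B window was the highest of the type I range and still below the threshold of 2.7.

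Only 3 more type I regions had an H3K27me3 top window of at least 1. The region from 99747169 to 99748080 had 5 probes, all kept, and a mean of 1.51, with a top window of 1.64, 2.09 and 2.00 (1.91 ± 0.24). RING1B there averaged 0.22. In the first region of the range, from 99164684 to 99170062, the top window was 1.24 ± 0.64 for H3K27me3 and 0.75 ± 0.55 for RING1B. The region from 99449884 to 99452967 had 1.04 ± 0.75 for H3K27me3 and 1.35 ± 0.63 for RING1B, on 11 kept probes for each antibody. In the larger of these regions, with 21 and 13 probes, the standard deviation over the 3 probes was more than 0.6, so their distance from 1 was within probe noise.

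In the other 2 type I regions with a RING1B top window of at least 1, H3K27me3 stayed under 1. From 99864756 to 99872090 the RING1B top window was 1.33 ± 0.30 and that of H3K27me3 0.22 ± 0.21. From 99203019 to 99210953 RING1B reached 1.18 ± 0.66 and H3K27me3 0.37 ± 0.21, and the same region had the lowest H3K27me3 bottom window of the range, with probes at -2.74, -2.14 and -1.66 (mean -2.18 ± 0.54). The lowest RING1B bottom window lay from 99306868 to 99314711, with probes at -2.73, -2.23 and -2.81 (mean -2.59 ± 0.31), and H3K27me3 averaged -1.05 over that region.

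Low H3K27me3 was spread along the type I range rather than held in one place. Split where at least 45 kb held no probe, the range formed 5 blocks, with H3K27me3 medians in order along the chromosome of -0.24, -0.78, -0.18, -0.82 and -0.35. The corresponding RING1B medians were -0.22, -0.40, -0.11, -0.65 and -0.20. All 10 medians were below 0, and for both antibodies the second block and the fourth were the lowest. The cut of 45 kb was not varied, and gaps of 47.5 and 45.9 kb between these blocks lay just above it. H3K27me3 region means were above 0 in 5 of 30 type I regions, against 551 of 1611 on the rest of chromosome 11. RING1B means were above 0 in 4 of 30, against 619 of 1613. The median region mean on the rest of chromosome 11 was itself below 0, at -0.38 for H3K27me3 and -0.14 for RING1B.

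**Figure D3:**
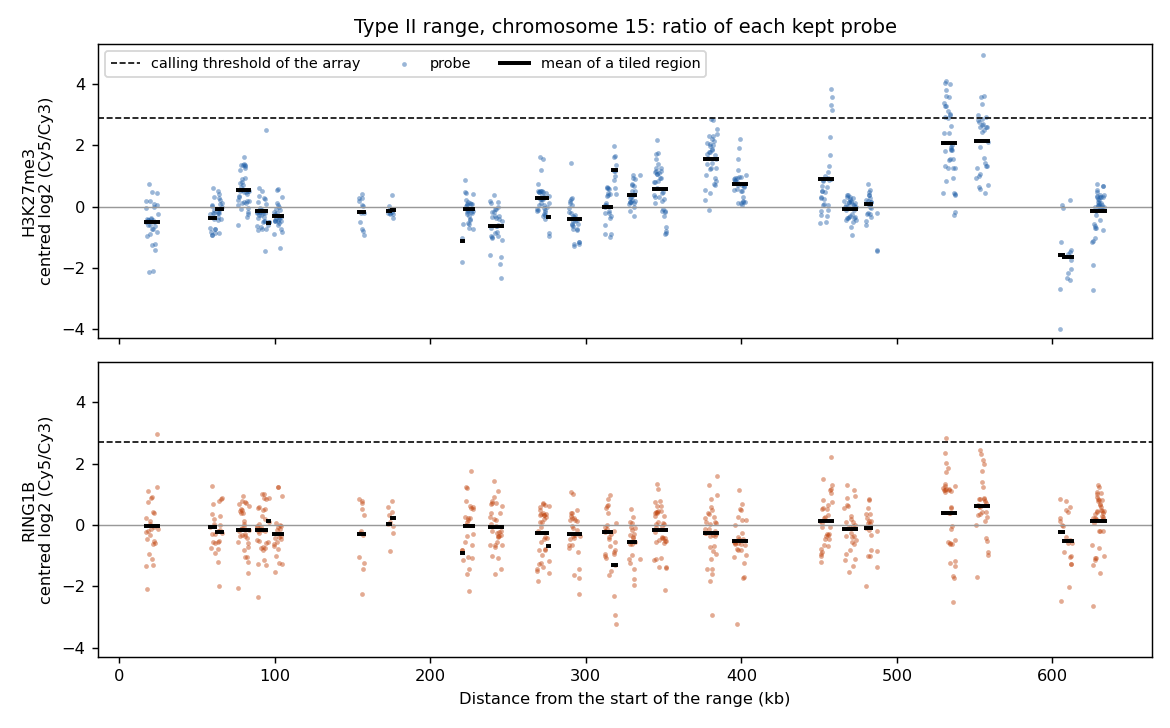
Centred log2 ratio of each kept probe (points) along the type II range for H3K27me3 (top) and RING1B (bottom), with distance from the start of the range in kb on the horizontal axis, black bars for region means and a dashed line at the calling threshold. The highest H3K27me3 bars stand in the later part of the range, before its last 3 regions, with points over the dashed line in 3 regions, while no RING1B bar comes near its dashed line and the lowest lies at -1.32.

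The type II range held 3 regions called for H3K27me3, all in the third of its 4 blocks. In the region from 101829660 to 101837497 the top window read 3.78, 3.27 and 4.09 (3.71 ± 0.41, 13.1-fold), and in the neighbouring region from 101850805 to 101858591 it read 2.69, 4.93 and 3.61 (3.74 ± 1.13, 13.4-fold). Both were broad: windows of at least 1 made up 31 of 36 in the first and 28 of 28 in the second, and the region means were 2.09 and 2.14. The region from 101750598 to 101758213 was called on 1 of its 29 windows, with probes at 2.27, 3.83 and 3.30 (3.13 ± 0.80), and the other end of it was near 0, with a region mean of 0.89. The number of type II calls was 2 with loess (12.1% of the array called), 2 without the filter on dim probes (12.1%) and 4 with normexp (18.7%).

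RING1B was highest in the same 3 type II regions, at lower ratios. Its top windows were 1.92 ± 0.84 (probes 2.84, 1.18 and 1.73), 2.05 ± 0.56 (2.44, 2.31 and 1.40) and 1.47 ± 0.64, in the order given above. The centres of the RING1B and H3K27me3 windows were 295, 1388 and 434 bp apart. RING1B means over the whole regions were 0.39, 0.62 and 0.14. None of the 3 passed 2.7.

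**Figure D4:**
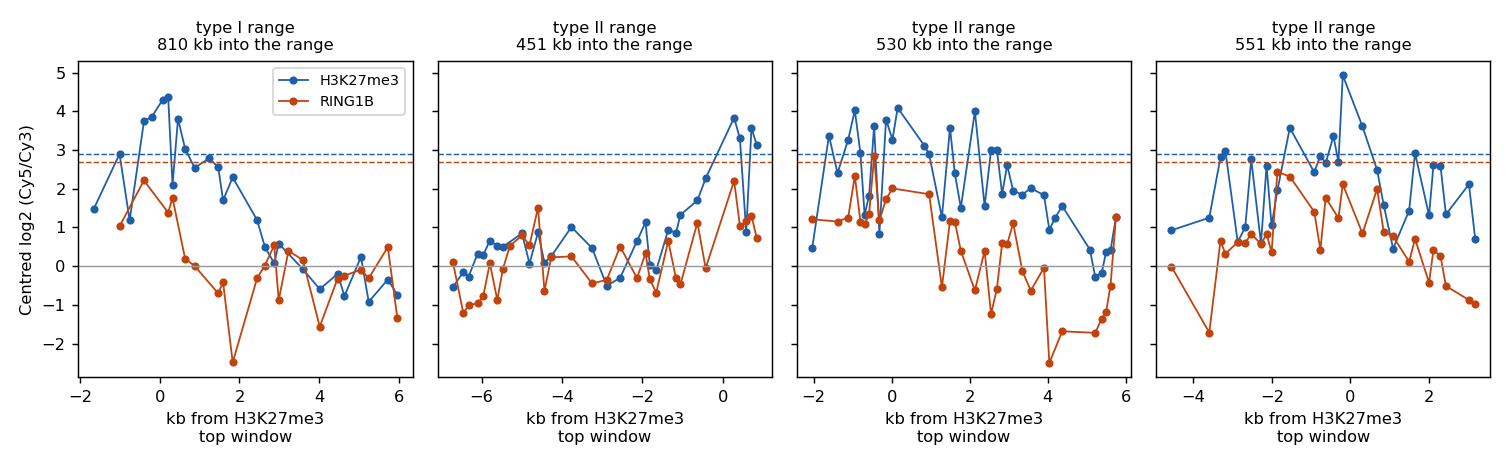
Centred log2 ratio of each kept probe for H3K27me3 (blue) and RING1B (orange) across the 4 keratin regions called for H3K27me3, with distance from the centre of the H3K27me3 top window in kb on the horizontal axis and dashed lines at the 2 calling thresholds. H3K27me3 lies above RING1B at most probes near the top windows, and RING1B windows stay below their threshold in all 4.

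Weak RING1B beside called H3K27me3 was not particular to the keratin regions. Over the 4 called keratin regions the RING1B top windows ran from 1.47 to 2.05, with a median of 1.85. On chromosomes 11 and 15 outside the ranges, 137 regions had an H3K27me3 top window between 3.13 and 4.18, the lowest and highest of the keratin calls, and their RING1B median was 2.03, with quartiles of 1.49 and 2.50. RING1B was called in 29 of those 137 (21.2%), and in 177 of all 368 regions called for H3K27me3 there (48.1%). The 4 keratin regions fell between the quartiles or just under the lower one.

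A second group of type II regions, chosen after its values were seen, had moderate H3K27me3 with low RING1B. It was the run of 6 neighbouring regions from 101617349 to 101703092 (85.7 kb, 144 probes). H3K27me3 was above 0 at 117 of 130 kept probes (90.0%), with a median of 0.85 and quartiles of 0.32 and 1.37, against a median of -0.0023 and 49.8% above 0 at the 532 other kept type II probes. RING1B was above 0 at 44 of 128 kept probes (34.4%), with a median of -0.38, against -0.04 and 47.4%. None of the 5 regions with a top window was called for either antibody.

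Along that run the region means of H3K27me3 ran from 0.36 to 1.57 and those of RING1B from -1.32 to -0.16, over the 5 regions with at least 3 kept probes. The highest H3K27me3 was in the region from 101676524 to 101684313, with a top window of 2.31, 2.83 and 2.02 (2.38 ± 0.41) and 30 of 32 windows of at least 1. RING1B averaged -0.26 in it. One region outside this run and the called regions also had an H3K27me3 top window of at least 1, from 101376223 to 101383742, at 1.28 ± 0.35, with RING1B at 0.71 ± 0.28. The widest gap between antibodies in either range was in the region from 101617349 to 101619648, where H3K27me3 averaged 1.18 and RING1B -1.32, over 10 kept probes each. Its RING1B bottom window held probes at -2.92, 0.05 and -3.24, an SD of 1.82, and the median over its RING1B probes was -0.93.

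RING1B reached at least 1 in 3 type II regions where H3K27me3 stayed under it. From 101317208 to 101325043 the RING1B top window was 1.35 ± 1.55, carried by a single probe at 2.96, and H3K27me3 reached 0.11 ± 0.68. From 101538492 to 101546295 it was 1.04 ± 0.33 with H3K27me3 at 0.01 ± 0.32, and from 101925179 to 101933442 it was 1.01 ± 0.08 with H3K27me3 at 0.59 ± 0.14. The lowest H3K27me3 of the range lay near its end: from 101904586 to 101906641 the bottom window read -2.70, -3.99 and -1.16 (-2.62 ± 1.42), and from 101907639 to 101912441 the region mean was -1.65 on 9 kept probes. RING1B averaged -0.22 and -0.52 there.

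The 4 type II blocks had H3K27me3 medians of -0.18, 0.17, 0.61 and -0.04 in order along the chromosome, and RING1B medians of -0.16, -0.25, 0.20 and 0.21. The third block, which held the 3 called regions, was thus the highest for H3K27me3. The upper quartile there was 2.09, against 0.22, 0.82 and 0.23 in the other 3 blocks.

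**Figure D5:**
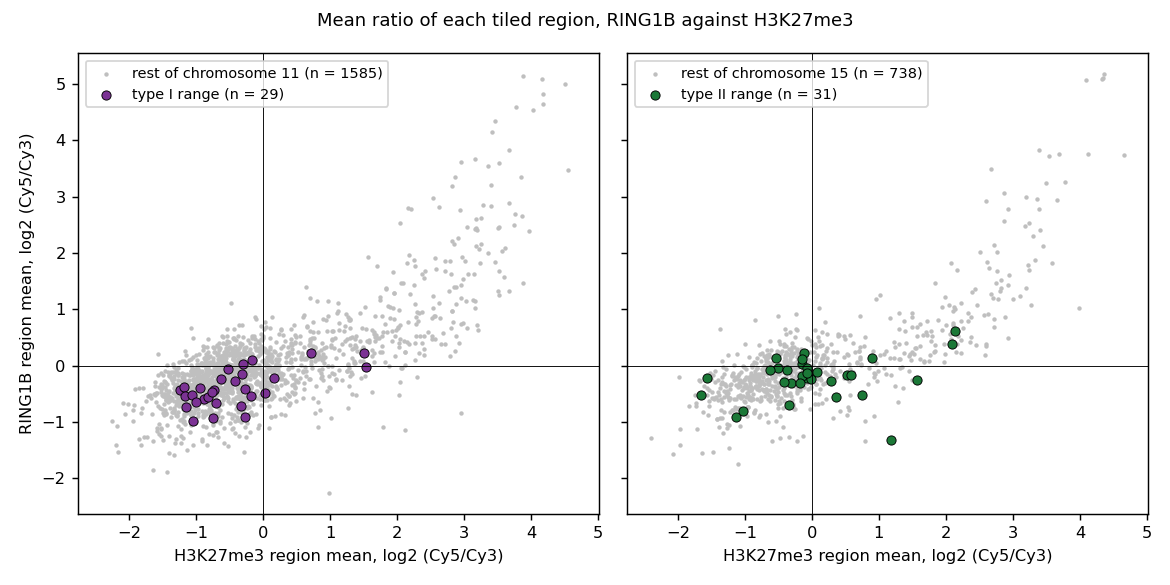
Mean centred log2 ratio of each tiled region for RING1B (vertical axis) against H3K27me3 (horizontal axis), with keratin regions as large points over the rest of the same chromosome in grey, for chromosome 11 (left) and 15 (right). Keratin regions stay in the lower left and centre of the grey cloud, and 8 type II regions lie at H3K27me3 above 0 and RING1B below 0.

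Across regions, how closely the antibodies moved together in the type II range depended on the measure. Pearson's r between region means was 0.63 over 29 type I regions and 0.32 over 31 type II regions, and 0.75 over 1585 and 0.78 over 738 regions on the rest of chromosomes 11 and 15. Without the 2 regions of highest H3K27me3, r was 0.52 in the type I range and 0.007 in the type II range. Outside the ranges it was 0.75 and 0.78 without the 2 highest, though 2 regions are a far smaller part of those sets. Spearman's rho was 0.51 and 0.20 in the ranges and 0.62 and 0.69 outside them. Between top windows, r was 0.63 and 0.66 in the ranges and 0.79 and 0.81 outside them. With normexp background correction, r between region means was 0.42 in the type I range and 0.46 in the type II range, so their order turned. These are descriptions over regions that share 2 arrays.

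H3K27me3 above 0 with RING1B below 0 was found in 3 of 29 type I regions (10.3%), against 10.2% on the rest of chromosome 11, and in 8 of 31 type II regions (25.8%), against 8.13% on the rest of chromosome 15. Of those 8, 5 are regions of the run from 101617349 to 101703092 that was chosen after its values were seen. The type II share thus largely repeats that run. Another of the 8, from 101779960 to 101783641, had means near 0 (0.07 for H3K27me3, -0.11 for RING1B). Both means were below 0 in 22 of 29 type I and 16 of 31 type II regions. The same held in 811 of 1585 and 350 of 738 regions on the rest of chromosomes 11 and 15. Both were above 0 in 2 and 3 keratin regions, against 383 and 207 outside the ranges. The H3K27me3 mean exceeded that of RING1B by at least 1 in 2 type I (6.90%) and 5 type II regions (16.1%), against 12.7% and 15.9% of regions on the rest of chromosomes 11 and 15. The reverse held in 0 and 2 regions (6.45% of the type II regions), against 6.75% and 5.69%.

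Next to the ranges no adjoining region was called on either chromosome. On chromosome 11 the nearest 2 regions on each side were uncalled, with H3K27me3 top windows of 0.18 ± 0.08 and -0.22 ± 0.61 before the range and 1.12 ± 0.30 and -0.49 ± 0.43 after it. On chromosome 15 the nearest region on each side had H3K27me3 at 0.48 ± 0.26 and 0.41 ± 0.22 and RING1B at 0.14 ± 0.11 and 1.34 ± 0.29. The second nearest on each side were called: a region that ended 28.1 kb before the range, from 101265006 to 101271908, was called for H3K27me3 at 4.20 ± 0.22, with RING1B at 2.04 ± 0.55. A region 18.6 kb after it, from 101968637 to 101979220, was called for both, at 4.74 ± 0.26 for H3K27me3 and 2.86 ± 0.44 for RING1B. Just inside the same ends, the first type II region had H3K27me3 at 0.11 ± 0.68 and the last at 0.59 ± 0.14.

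At a wider scale, high Cy5 over Cy3 was more frequent around the type II range than inside it. Over the 1402 other probes within 1 Mb of its ends, medians were 0.45 for RING1B and 0.38 for H3K27me3, and 95th percentiles 5.71 and 4.995. Inside the range the medians were -0.10 and 0.13 and the 95th percentiles 1.22 and 2.59. The 5th percentiles were -1.32 and -1.68 around the range and -1.59 and -1.13 inside it. The probes around the type II range were also high beside the rest of chromosome 15. Ratios of at least 3 made up 22.5% of them for RING1B and 24.5% for H3K27me3, against 4.66% and 10.53%. Within 1 Mb of the type I range, the 1855 other probes had medians of 0.13 and 0.06 and 95th percentiles of 2.43 and 3.75, against -0.32 and -0.52 and 1.02 and 1.03 inside it.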

How the data were processed

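ChIP-chip arrays of 2 antibodies in pooled forelimb buds were used, 1 array per antibody at each keratin locus; samples were grouped by the antibody named in the labels. Scans were read by the authors in Agilent Feature Extraction (version 10.1.1.1), per the file headers, and the deposited processed signals are intensity values with background subtracted, multiplicative detrending and linear dye normalization. The deposited log ratios are on the log10 scale, Cy5 over Cy3. The deposited value table is on the log2 scale and was found to hold the same ratios, uncentred, with medians of -0.12 for RING1B and 0.018 for H3K27me3; at least 99.8% of its values lay within 0.001 of the scanner ratios.

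Ratios were recomputed as log2 of the processed signals and centred on the median of kept probes (199087 for RING1B, 197312 for H3K27me3), without loess or quantile steps. Probes counted as kept when both dyes were well above background and no outlier flag was set; 0 spots in the ranges were saturated. Regions were named by rule: in each range the 6 highest top windows and the 4 lowest bottom windows per antibody, the 3 largest differences between antibodies each way, the regions at the range ends and the called regions. Some of them are given only within counts. Gene lists could not be applied, since the files name no genes. The members, regions and lists were chosen with earlier results of these data known. Alternatives were normexp with an offset of 50 (limma 3.58.1, R 4.3.3), loess, the value table, other filters, thresholds, windows, comparison sets and summaries. Scripts (Python 3.11.15, pandas 2.3.3) were tested on simulated data. Precision is limited by the single array per antibody.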

Additional observations from a re-analysis of the deposited data

How the results depend on the processing

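No paired analysis was possible because the arrays numbered 1 and 2 are different designs that share 0 probes, and each antibody was measured on 1 array at each locus. Of the values recomputed under other settings, 119 stayed within their margin, 35 moved and 2 changed sign, both of the type II H3K27me3 median difference, which was 0.083 and became -0.25 against probes within 1 Mb and -0.064 with means. For the median differences the recorded spread was 0.36 and 0.41 for RING1B (type I and type II) and 0.68 and 0.90 for H3K27me3. It was about as large as the differences or larger, so staying within it says little. Some settings could hardly move a value, such as the deposited value table, which holds the same ratios. The type I differences kept their sign under all 10 alternatives, from -0.67 to -0.025 for H3K27me3 and from -0.55 to -0.13 for RING1B, as did the type II RING1B difference, from -0.55 to -0.091. The cause of the changes below was not tested.

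With normexp, RING1B top windows of at least 1 numbered 0 and 3 (type I and type II; 18.5% of the array) and calls 2 and 5 (30.4%). For H3K27me3, normexp gave top windows in 1 and 3 regions (15.4%). The correlation between antibodies became 0.42 in the type I range and 0.46 in the type II range. Bottom windows of at most -1 numbered 0 and 0 for each antibody with normexp, where 0.16% and 0.08% of the array had one, so these counts say nothing about the ranges. With loess, type I top windows numbered 7 for each antibody (36.5% of the array for RING1B, 35.5% for H3K27me3), type I H3K27me3 bottom windows 12 (44.6%) and type II RING1B bottom windows 11 (47.9%). At 1.5-fold, RING1B top windows numbered 12 and 17 (56.7%) and type II bottom windows 27 (76.4%), and type II H3K27me3 had 14 top (37.5%) and 13 bottom windows (65.8%). At 3-fold, RING1B top windows numbered 1 and 2 (16.5%), and type I H3K27me3 had 2 (24.2%). Windows of 5 probes gave RING1B bottom windows in 12 and 10 regions (38.6%), type II RING1B top windows in 3 (30.3%) and type II H3K27me3 bottom windows in 4 (46.8%). When a raw signal under 2-fold of local background defined a dim probe, Cy5 shares were 56.2% and 51.4% for RING1B, against 41.7% and 40.8% on the rest of chromosomes 11 and 15, and 39.2% and 18.4% for H3K27me3, against 30.7% and 28.3%. Cy3 shares were 2.45%, 2.03%, 2.31% and 1.63% in the same order.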
